A study of Mus musculus with 12 samples.

Results

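Syntrophins, dystrobrevins, neuronal nitric oxide synthase and 2 aquaporins were followed at the level of mRNA in dystrophic and normal muscle. The 7 genes, Sntb1, Sntb2, Dtna, Dtnb, Nos1, Aqp1 and Aqp4, were taken by symbol from a count table of 24421 entries. All 7 were among the 13937 genes that passed the filter on low counts and were tested. Messenger RNA was measured in the tibialis anterior, a hindlimb muscle, of males aged 4 months. The 6 WT libraries are from C57Bl/6 animals and the 6 mdx/mTR libraries from animals of that double mutant strain. Dystrophin, encoded by Dmd, is lost through the mdx allele, and mTR denotes the telomerase RNA gene, listed as Terc. No group with mdx alone or mTR alone is analysed here, so the effects of the 2 alleles cannot be told apart. The labels number the samples within a group but do not state that each is a separate animal, so p-values measure the spread between these samples.

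Syntrophins are adaptor proteins that bind dystrophin, utrophin and dystrobrevins beneath the muscle membrane and hold signalling enzymes and channels there through a PDZ domain. Dystrobrevins are relatives of dystrophin that bind both it and the syntrophins. In normal fast muscle this scaffold anchors neuronal nitric oxide synthase, the product of Nos1, and the water channel aquaporin 4 at the membrane, and both proteins are known to leave it when dystrophin is absent. Aquaporin 1 is the water channel of capillary endothelium and red blood cells. Protein position is not read by mRNA counts.

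The RefSeq promoter table of GRCm38.p6 matched 3 of the 7 genes, Nos1, Aqp1 and Dtnb. The entries of Nos1 and Aqp1 are shown because both mRNAs were lower in mdx/mTR. Each runs from 250 bases before to 50 after a RefSeq transcript start, 5′ to 3′ on the plus strand, with capitals marking the E-box letters CANNTG and the GC box letters GGGCGG. They are chr5:117866589-117866888 for Nos1 and chr6:55336049-55336348 for Aqp1.
Nos1: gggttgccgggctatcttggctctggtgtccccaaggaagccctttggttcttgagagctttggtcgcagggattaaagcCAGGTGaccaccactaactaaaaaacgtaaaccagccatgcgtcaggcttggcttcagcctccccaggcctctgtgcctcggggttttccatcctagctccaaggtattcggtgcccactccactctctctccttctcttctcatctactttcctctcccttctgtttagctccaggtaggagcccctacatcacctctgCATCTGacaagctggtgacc
Aqp1: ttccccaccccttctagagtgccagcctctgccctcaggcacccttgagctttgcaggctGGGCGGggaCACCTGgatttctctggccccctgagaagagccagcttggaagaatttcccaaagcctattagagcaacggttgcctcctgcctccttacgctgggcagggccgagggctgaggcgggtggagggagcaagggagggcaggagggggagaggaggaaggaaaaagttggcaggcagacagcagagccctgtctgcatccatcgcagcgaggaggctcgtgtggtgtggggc
Both strands were searched. Nos1 held CANNTG at -170 and at 31 relative to the start, and Aqp1 held it at -181, just downstream of a GGGCGG at -190. CANNTG occurs in 72.3% and GGGCGG in 35.7% of 32851 promoters of this length. Neither window held TATAAA, which 13.6% of promoters hold. The Nos1 window lies inside the gene's annotated span and so describes only 1 of its starts. The Aqp1 window ends at 55336348, before the gene's annotated span begins at 55336432, so it does not cover that start.

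Library totals ran from 35136327 to 60330410 counts. Dmd was 237 ± 6.90 CPM in WT against 46.8 ± 7.20 CPM in mdx/mTR (CPM, counts per 1000000 of the TMM-scaled library size, mean ± SD, n = 6 each; log2 fold change -2.34, edgeR adjusted p 8.3e-10). Terc had at most 2 counts in any library, so its loss could not be checked. The 12 mature fibre markers, which include the fast myosin genes of this muscle, summed to 216639 to 243666 CPM in WT against 165917 to 226363 CPM in mdx/mTR. A pair of libraries stood apart for some values, and both were picked after those values were seen. WT replicate 2 was highest of its group for Sntb1, Sntb2 and Aqp4. The library of mdx/mTR replicate 5 held 595 CPM of regenerating muscle markers, where the rest of its group held 152 to 308 CPM. Extreme values were found in 5 of 90 sets of 6 libraries, where chance gives about 4.5, so neither library is an established outlier. Results are also given without these 2 libraries, as a description.

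Of the 7 genes, 3 were higher in mdx/mTR (Sntb1, Sntb2 and Dtna), 3 were lower (Nos1, Aqp1 and Aqp4) and Dtnb did not pass. Over all tested genes, 25.0% were higher, 23.4% lower and 48.3% either way at an edgeR adjusted p below 0.05, so calls were common in this comparison. The members' median absolute log2 fold change was 0.42, against 0.23 over all tested genes. In 1 of the 7, Aqp4, the groups did not overlap, where 25.2% of all tested genes had groups that did not overlap. With library totals alone in place of TMM, the median change of all genes moved on the log2 scale from 0.01 to 0.17 and 78.2% of calls were higher in place of 51.6%. Directions below are relative to TMM. The 6 called genes kept their direction under every scaling, while the sign of Dtnb flipped with library totals and upper quartile scaling.

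**Figure D1:**
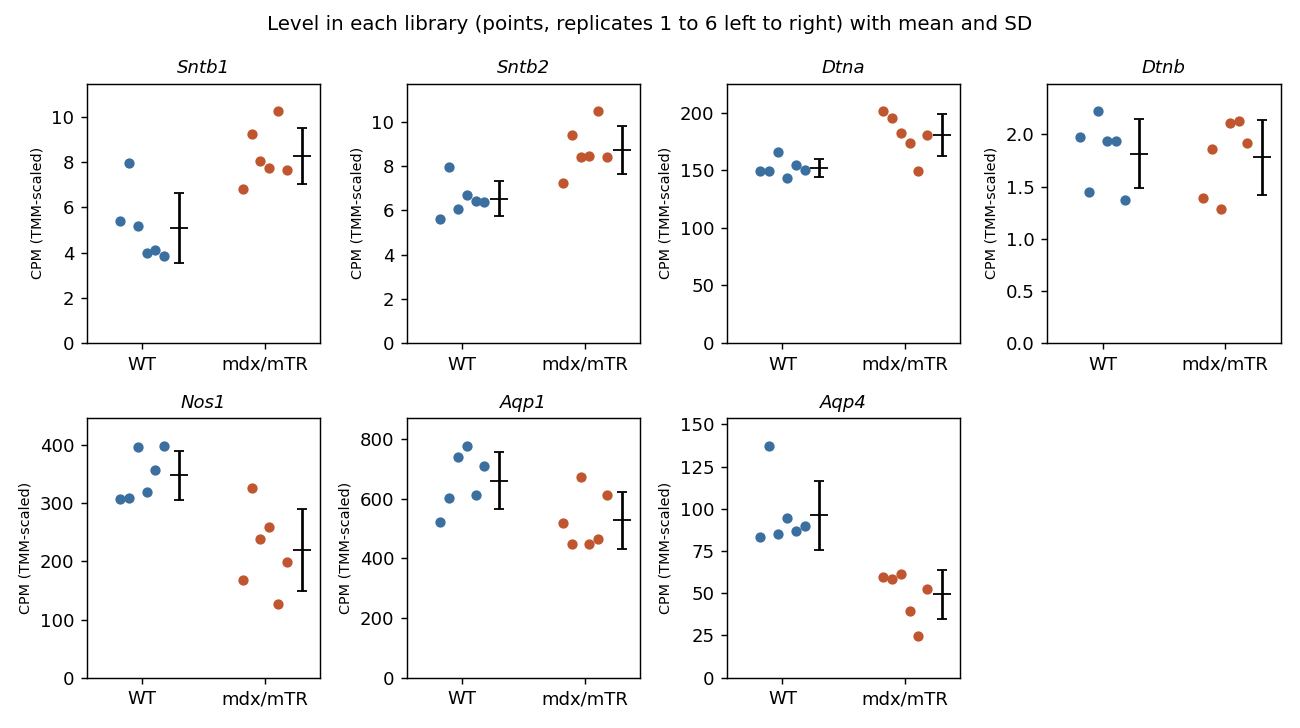
Level of each of the 7 genes in CPM on an axis from 0, with 1 point per library and the mean and SD of 6 libraries beside each group. Aqp4 shows 6 mdx/mTR points (24.9 to 61.5 CPM) below all 6 WT points (83.3 to 137 CPM), and the other genes overlap.

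The syntrophins were examined first. Sntb1, the beta1 syntrophin, has its gene at chr15:55636388-55906949 on the minus strand. Its level was 3.86, 4.65 and 7.96 CPM in WT (lowest, median and highest library) and 6.83, 7.89 and 10.2 CPM in mdx/mTR. All mdx/mTR libraries lay above the WT median, and 3 of 6 lay above the highest WT library, which was replicate 2. The mean rose from 5.08 ± 1.548 to 8.29 ± 1.23 CPM (SD, n = 6), a 1.63-fold rise with a log2 fold change of 0.71 ± 0.17 (SE, edgeR adjusted p 0.00328). Without WT replicate 2 and mdx/mTR replicate 5 it was 0.81 (edgeR adjusted p 1.7e-04). WT replicate 2 was left out for its high values, that of Sntb1 among them, so this smaller p is no separate support.

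Sntb2, the beta2 syntrophin known from the neuromuscular junction, lies at chr8:106935750-107019714 on the plus strand. Its lowest, median and highest levels were 5.61, 6.41 and 7.96 CPM in WT against 7.23, 8.45 and 10.5 CPM in mdx/mTR, and 5 of 6 mdx/mTR libraries exceeded the highest WT library. It rose 1.34-fold (log2 fold change 0.42 ± 0.10 SE, edgeR adjusted p 0.00336), and by 0.42 on the log2 scale without the 2 libraries that stood apart.

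Per kilobase of longest coding transcript, WT levels were 1.03 ± 0.315 for Sntb1 and 0.656 ± 0.0799 for Sntb2 (CPM per kb, SD, n = 6), and their WT ranges overlapped.

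Marker lists moved in both directions beside the beta syntrophins, and some moved upward as they did. Fibro-adipogenic cell markers had 8 of 10 genes higher and summed to 1838 to 2589 CPM in WT against 3712 to 5730 CPM in mdx/mTR. Macrophage markers had 9 of 10 higher (108 to 185 against 299 to 788 CPM). Neuromuscular junction markers had 6 of 10 higher (197 to 214 against 272 to 354 CPM). Regenerating muscle markers had 8 of 10 higher and 1 lower (67.6 to 83.4 against 152 to 595 CPM). Lists that moved the other way, without overlap of the groups, were endothelial markers (7 of 12 lower), smooth muscle and pericyte markers (6 of 10 lower) and Schwann cell markers (6 of 8 lower). Of the fat cell markers none was called in edgeR. None of these markers was at 0, and their part in the syntrophin results was not tested. Whole muscle was sequenced, so fewer or more cells of a type cannot be told apart from less or more RNA per cell.

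**Figure D2:**
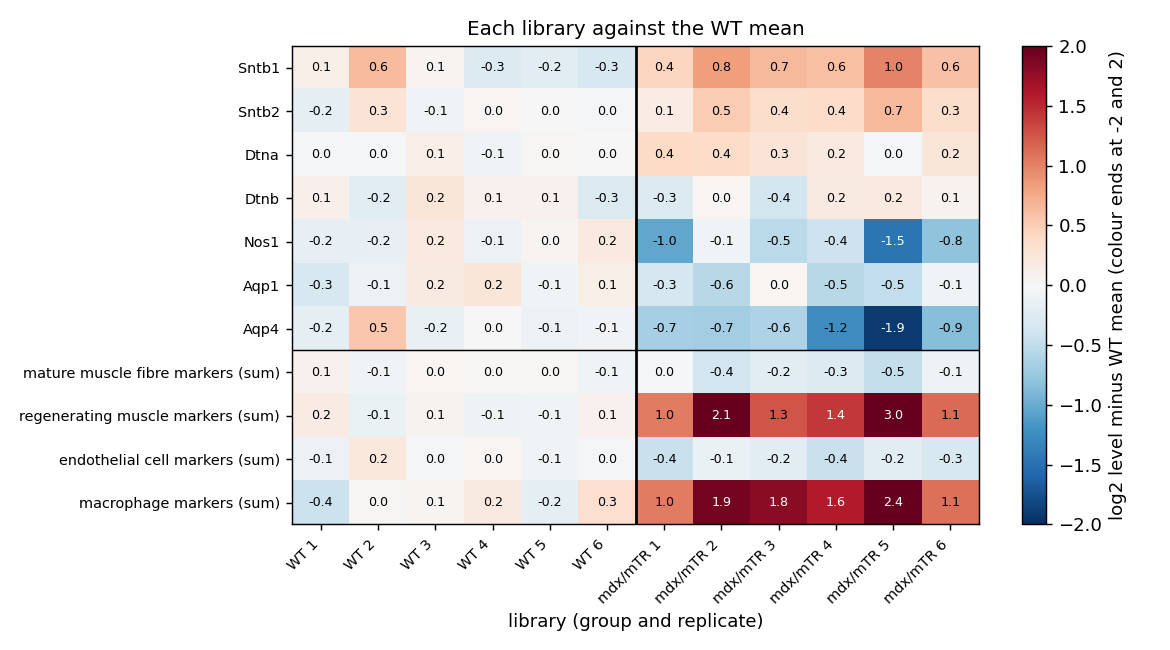
Log2 level of each gene, and of the summed markers of 4 cell types, in each of 12 libraries, minus the mean of the 6 WT libraries. Rows are genes or marker lists and columns are libraries. The column of mdx/mTR replicate 5 holds the lowest Aqp4 (-1.91) and Nos1 (-1.46) and the highest Sntb1 (0.99) and Sntb2 (0.65).

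The dystrobrevins followed. Dtna encodes alpha dystrobrevin, the main dystrobrevin of muscle, at chr18:23415135-23659715 on the plus strand. Its levels were 143, 150 and 166 CPM in WT against 149.6, 182 and 201 CPM in mdx/mTR (lowest, median, highest). In mdx/mTR, 5 of 6 libraries were above the highest WT library, and the exception was replicate 5. Dtna rose 1.19-fold, from 152 ± 7.66 to 181 ± 18.2 CPM (0.25 ± 0.07 SE on the log2 scale, edgeR adjusted p 0.00712). Changes of this size were common: 46.9% of all tested genes had a larger absolute log2 fold change. Without the 2 libraries that stood apart the value was 0.29 (edgeR adjusted p 0.00106).

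Dtnb encodes beta dystrobrevin, known mainly from non-muscle tissue such as brain and kidney, at chr12:3572381-3781796 on the plus strand. It had 47 to 121 counts in a library, the lowest of the 7 genes. Levels were 1.37, 1.93 and 2.22 CPM in WT against 1.29, 1.89 and 2.13 CPM in mdx/mTR, so the groups covered nearly the same range. The log2 fold change was -0.02 (95% interval -0.38 to 0.33, edgeR adjusted p 0.918), and -0.14 without the 2 libraries that stood apart. Of the 50-base stretches of its longest coding transcript, 6.26% also occur in another gene's transcript, against at most 2.21% for the other 6 genes, so its level is the least certain. Per kilobase, Dtna was at 24.2 ± 1.22 and Dtnb at 0.492 ± 0.0899 CPM per kb in WT. Dtna made up 98.0% ± 0.325 of the 2 dystrobrevins in WT against 98.3% ± 0.473 in mdx/mTR (SD, n = 6; two-sided exact permutation p 0.227, adjusted p 0.284 over 5 shares and ratios). Counts per gene do not separate the splice forms of Dtna, which differ in their binding sites.

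Nos1 encodes neuronal nitric oxide synthase, whose muscle form makes the nitric oxide that widens vessels in working muscle. The gene lies at chr5:117781032-117958840 on the plus strand. Its levels were 308, 338 and 398 CPM in WT against 126, 219 and 327 CPM in mdx/mTR (lowest, median, highest). The mdx/mTR libraries were the more scattered, and 5 of 6 lay below the lowest WT library, replicate 2 being the exception. The mean fell from 348 ± 42.2 to 219 ± 70.9 CPM, to 63.0% of WT by the fitted log2 fold change of -0.67 ± 0.18 (SE, edgeR adjusted p 0.00761). Without mdx/mTR replicate 5, the lowest, it was -0.55 (edgeR adjusted p 0.00671), and without WT replicate 2 as well it was -0.58. An antisense gene, Gm26995, overlaps 2.40% of the exon bases of Nos1, and strand handling in the counting is not given in the sources used here.

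Per kilobase, the other nitric oxide synthases were lower in level than Nos1 in WT, at 1.67 (Nos2) and 5.68 (Nos3) against 34.4 CPM per kb. Nos2, the inducible form of macrophages, was at 7.02 ± 1.62 and 8.21 ± 1.82 CPM (log2 fold change 0.23, edgeR adjusted p 0.248). Nos3, the endothelial form, was at 23.5 ± 1.81 and 21.7 ± 1.81 CPM (-0.11, edgeR adjusted p 0.184). It shares 20.3% of its 50-base stretches with other genes. The opposite-strand genes Gm15587 and Atg9b overlap 25.2% and 7.1% of the exon bases of Nos3. With strand handling not given, the level of Nos3 and the share that uses it are less certain. Per kilobase, Nos1 supplied 78.2%, 83.0% and 85.5% of the 3 synthases in WT (lowest, median, highest) and 62.0%, 74.9% and 79.6% in mdx/mTR. The means differed by -8.38 points (exact permutation p 0.0108, adjusted p 0.0379, n = 6 each), with 4 of 6 mdx/mTR libraries below the lowest WT library. Without mdx/mTR replicate 5 the difference was -6.02 points (exact permutation, adjusted p 0.0812), and 8 of the 12 fits without 1 library lost the call. With WT replicate 2 left out too it was -6.83 points (exact permutation, adjusted p 0.0397).

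**Figure D3:**
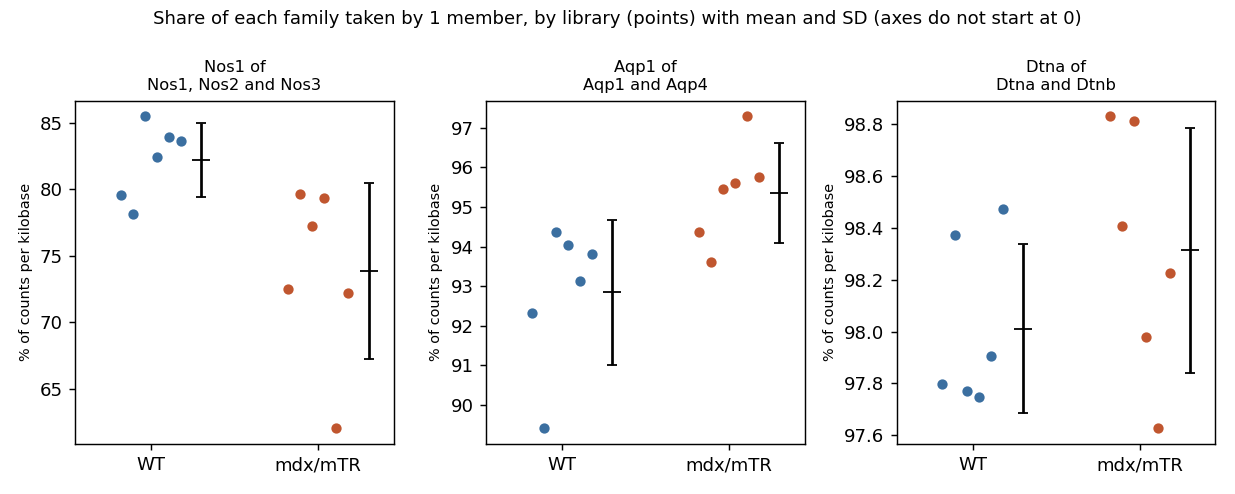
Share of counts per kilobase taken by Nos1, Aqp1 and Dtna within their families, in percent on axes that do not start at 0, with points for libraries and the mean and SD of 6. The Nos1 share sits at 78.2% to 85.5% in WT and 62.0% to 79.6% in mdx/mTR.

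Aqp4, the water channel of the fast fibre membrane that syntrophin anchors, had the largest change among the 7 genes. Its gene is at chr18:15389496-15410982 on the minus strand. Levels were 83.3, 88.6 and 137 CPM in WT against 24.9, 55.4 and 61.5 CPM in mdx/mTR (lowest, median, highest). All 6 mdx/mTR libraries lay below all 6 WT libraries, as was so for 12.6% of tested genes in this direction. The mean fell from 96.2 ± 20.4 to 49.4 ± 14.4 CPM, to 51.3% of WT (log2 fold change -0.96 ± 0.19 SE, edgeR adjusted p 0.00120). Of all tested genes, 9.83% had a larger absolute log2 fold change. WT replicate 2 was the highest WT library at 137 CPM and mdx/mTR replicate 5 the lowest mdx/mTR library. Without both, the log2 fold change was -0.70 (edgeR adjusted p 1.5e-04).

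Muscle fibre markers are given beside Nos1 and Aqp4. Of the 12 mature fibre markers, 1 was higher and 3 were lower in mdx/mTR, with a median log2 fold change of -0.19 and none at 0. Of the 10 regenerating muscle markers, 8 were higher and 1 lower, with summed levels of 67.6 to 83.4 CPM in WT against 152 to 595 CPM in mdx/mTR. The library with the most of these, mdx/mTR replicate 5, had the lowest Nos1 and Aqp4 of all 12. The other mdx/mTR libraries, in rising order of these markers, were replicates 1, 6, 3, 4 and 2 (152, 162, 177, 197 and 308 CPM). Across these, Nos1 rose in the same order, at 168, 199, 239, 258 and 327 CPM. Aqp4 was at 59.5, 52.2, 61.5, 39.6 and 58.6 CPM in that order. Without mdx/mTR replicate 5 the log2 fold change of Aqp4 was -0.83 (edgeR adjusted p 3.6e-04). The part of regenerating fibres in either fall was not tested.

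Aqp1, at chr6:55336432-55348555 on the plus strand, was the most abundant of the 7. Levels were 522, 661 and 776 CPM in WT against 447, 492 and 672 CPM in mdx/mTR (lowest, median, highest). In mdx/mTR, 4 of 6 libraries were below the lowest WT library, and replicates 3 and 6 were within the WT range. The mean fell from 660 ± 96.7 to 527 ± 95.02 CPM (-0.33 ± 0.12 SE on the log2 scale, edgeR adjusted p 0.0390). The call is a weak one. It was lost with library totals alone, where the value moved to -0.17 (edgeR adjusted p 0.214), with upper quartile scaling, and in 7 of the 12 fits without 1 library. Without the 2 libraries that stood apart it was -0.32 (edgeR adjusted p 0.0644).

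Endothelial markers were lower beside Aqp1. Of 12, 7 were lower and 1 higher, none was at 0, and they summed to 746 to 943 CPM in WT against 595 to 736 CPM in mdx/mTR, without overlap. Set against that sum, Aqp1 did not differ by test: the log2 ratio was -0.31 ± 0.23 in WT against -0.34 ± 0.27 in mdx/mTR (SD, n = 6 each; difference -0.0324, exact permutation p 0.816, adjusted p 0.816). Leaving out 1 library moved that difference between -0.0999 and 0.0432. The SDs of the ratio were near the size of the Aqp1 change itself (-0.33 on the log2 scale). The test therefore does not show that the ratio was equal in the 2 groups. The part of endothelial cells in the fall of Aqp1 was not tested. Of the 8 red blood cell markers only 2 were tested and neither passed. The 4 haemoglobin genes among them were listed at 0 in every library, so red cell RNA was not read by these. Per kilobase, Aqp1 made up 89.4%, 93.5% and 94.4% of the sum of Aqp1 and Aqp4 in WT and 93.6%, 95.5% and 97.3% in mdx/mTR. The means differed by 2.50 points (exact permutation p 0.0152, adjusted p 0.0379), or 1.43 points without the 2 libraries that stood apart (exact permutation, adjusted p 0.0794). The call was lost in 9 of the 12 fits without 1 library, with a highest adjusted p of 0.0812 in those exact tests. Both mRNAs were lower in mdx/mTR, Aqp4 (51.3% of WT) more than Aqp1 (79.8% of WT), so the higher share is not a rise of Aqp1.

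Set by level per kilobase in WT, the order was Aqp1 (251 ± 36.8 CPM per kb), Nos1 (34.4 ± 4.17), Dtna (24.2 ± 1.22), Aqp4 (19.0 ± 4.04), Sntb1 (1.03 ± 0.315), Sntb2 (0.656 ± 0.0799) and Dtnb (0.492 ± 0.0899; SD, n = 6). The WT ranges of Dtna and Aqp4 overlapped, as did those of Sntb1 and Sntb2 and of Sntb2 and Dtnb. The order depends on which transcript sets the length. With the median coding transcript, Aqp4 (75.4 CPM per kb) came above Dtna (55.8 CPM per kb) and close to Nos1 (77.6 CPM per kb).

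In the authors' deposited table the log2 fold changes were 0.66 for Sntb1, 0.40 for Sntb2, 0.24 for Dtna, -0.03 for Dtnb, -0.64 for Nos1, -0.32 for Aqp1 and -0.91 for Aqp4. Those of the authors' deposited table have the same signs as the edgeR values for all 7, and its adjusted p was below 0.05 for the same 6 genes, that of Aqp1 being 0.0180.

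**Figure D4:**
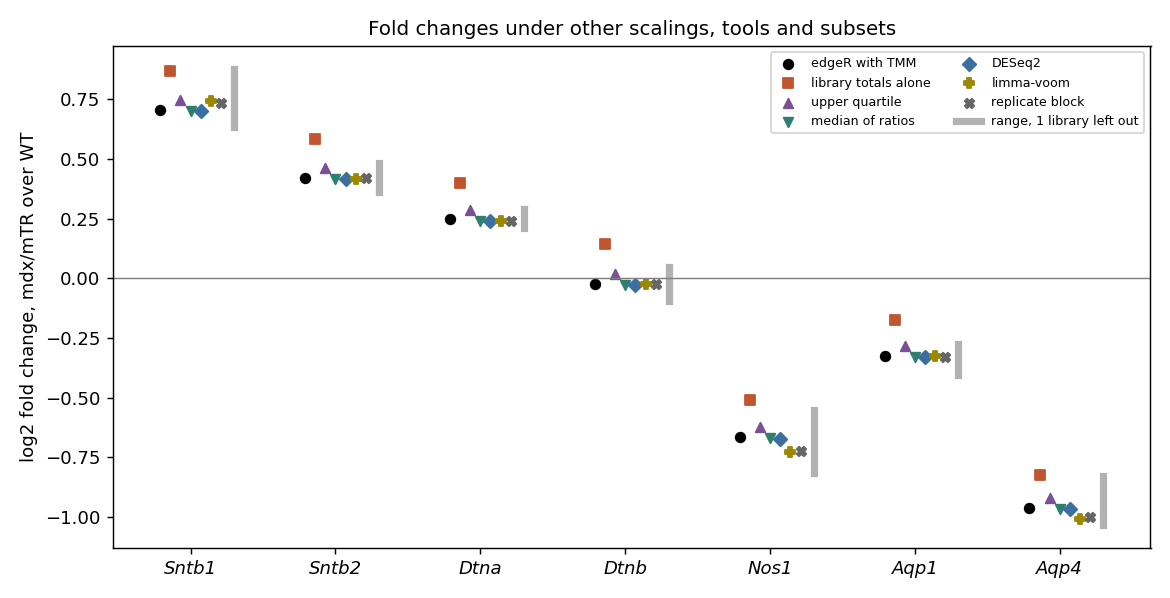
Log2 fold change of each of the 7 genes under edgeR with TMM, 3 other scalings, DESeq2, limma-voom and a replicate block (symbols), with the range over the 12 fits that each left out 1 library (grey bars). Library totals alone shift every gene upward, with Aqp1 at -0.17 and Dtnb at 0.14.

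Genes that act with these proteins were taken from 4 lists. Of 60 listed, 46 were tested, and 15 were higher and 10 lower, which is 54.3% called beside 48.3% of all tested genes. Among the dystrophin complex partners, 2 of 13 tested were higher and 3 lower (38.5% called, median log2 fold change 0.04). Lama2, a laminin chain outside the cell that the complex binds, rose from 73.6 ± 8.37 to 111 ± 10.03 CPM (log2 fold change 0.60, edgeR adjusted p 4.7e-05). Cav3, the caveolin of muscle, rose by 0.31 on the log2 scale (edgeR adjusted p 3.1e-04). Besides Dmd, those lower were Sgcd, a sarcoglycan, at -0.29 (edgeR adjusted p 0.00312; -0.14 and 0.0509 with library totals alone) and Sntg2, a gamma syntrophin, at -1.51 (edgeR adjusted p 0.00876). Sntg2 was near the limit of detection, at 0.431 ± 0.189 and 0.145 ± 0.0959 CPM. The count for this list was 10 with library totals alone.

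Of the ligands of syntrophins and dystrobrevins, 8 of 16 tested were higher and 5 lower (81.3% called, median 0.18). The 6 named here were chosen by smallest p, which favours groups that do not overlap, and theirs did not. Over all tested genes 25.2% had groups that did not overlap. Scn4a, the voltage-gated sodium channel of muscle, fell from 965 ± 62.6 to 591 ± 88.7 CPM (-0.71, edgeR adjusted p 4.8e-05). Synm, encoding the intermediate filament protein synemin, fell by 0.57 and Dtnbp1, encoding dysbindin, by 0.49 on the log2 scale. Sync, encoding syncoilin, another dystrobrevin-binding filament protein, rose by 0.58, from 36.2 ± 3.56 to 53.9 ± 4.64 CPM. The cholesterol transporter gene Abca1 rose by 0.71 and the kinesin gene Kif5a by 1.08, the latter from only 0.792 ± 0.107 CPM.

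In the list for nitric oxide synthesis and cyclic GMP signalling, 4 of 15 tested were higher and 1 lower (33.3% called, median -0.09). Asl, whose enzyme makes arginine, the substrate of nitric oxide synthases, rose from 4.35 ± 0.159 to 9.35 ± 1.14 CPM (log2 fold change 1.10, edgeR adjusted p 5.8e-07). Ddah1 (0.64) and Ddah2 (0.50), whose enzymes break down methylated arginines that inhibit the synthases, rose. So did Dynll1 (0.47), a dynein light chain that binds neuronal nitric oxide synthase. Prkg1, the cyclic GMP-dependent kinase, fell from 48.3 ± 6.58 to 32.2 ± 8.66 CPM (-0.59, edgeR adjusted p 0.00779). The 3 tested subunits of soluble guanylate cyclase, Gucy1a3, Gucy1a2 and Gucy1b3, did not pass, at -0.16, -0.25 and -0.11. Arg1, an arginase of macrophages that uses the same substrate, was not tested. Its median was 0.159 CPM in mdx/mTR, with a highest library of 9.82 CPM.

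Of 10 other aquaporins only 2 passed the filter. Aqp7, a channel for water and glycerol, fell from 20.1 ± 3.23 to 13.8 ± 1.08 CPM (-0.55, edgeR adjusted p 4.7e-04). Aqp11, which sits on membranes inside the cell, rose by 0.58, from 0.757 ± 0.146 to 1.13 ± 0.260 CPM (edgeR adjusted p 0.0209). Without mdx/mTR replicate 6 it did not pass (0.47, edgeR adjusted p 0.0521). Per kilobase Aqp7 was at 7.96 CPM per kb in WT, below Aqp4 at 19.0 CPM per kb.

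**Figure D5:**
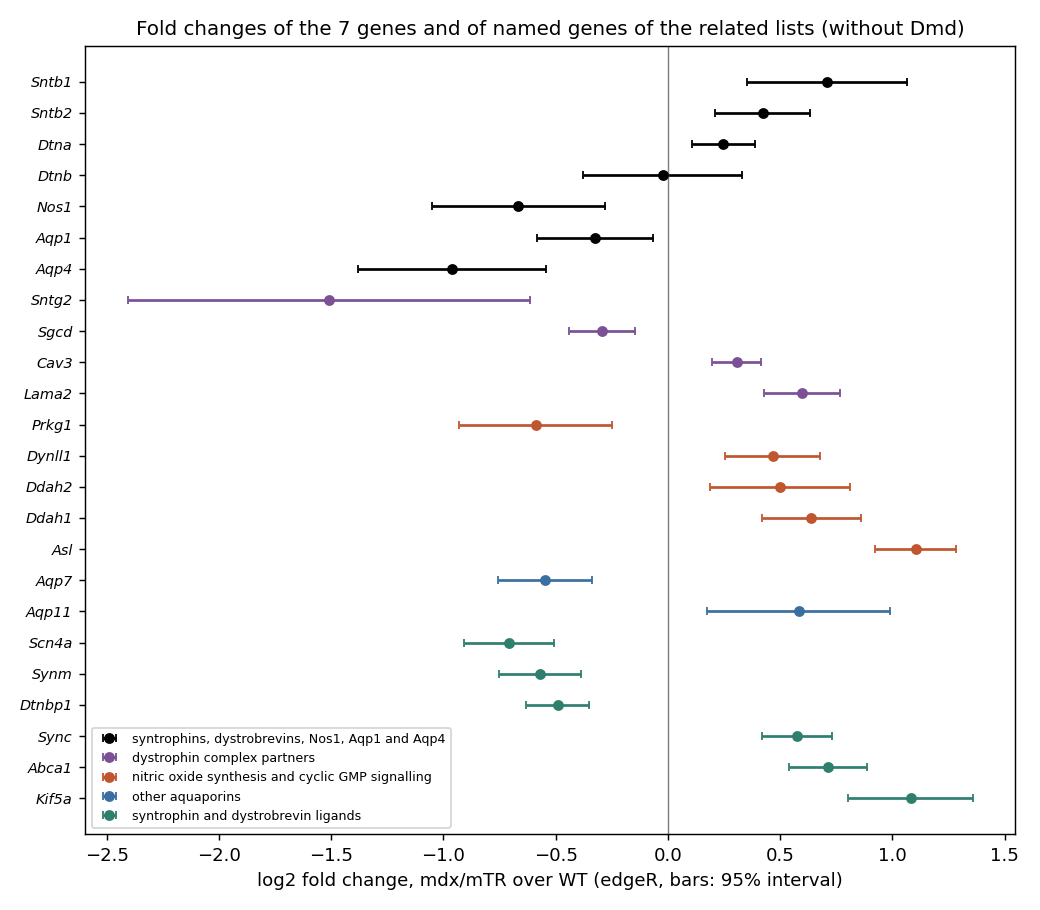
Change on the log2 scale (mdx/mTR relative to WT, bars for the 95% interval) for the 7 genes and for the called genes named from the 4 related lists, without Dmd. Aqp4 (-0.96) lies lowest of the 7 and Sntb1 (0.71) highest.

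How the 7 genes varied within a group was examined over 6 libraries, giving 42 relations, 21 in each group. None passed adjustment in Pearson or Spearman correlations (smallest exact permutation adjusted p 0.0875 and 0.117), and 3 of each had an unadjusted p below 0.05. Sntb1 and Sntb2 in mdx/mTR gave Pearson r = 0.983 (exact permutation p 0.00417, adjusted p 0.0875) and Spearman rho = 0.943 (exact permutation p 0.0167, adjusted p 0.233). Without the 2 libraries farthest from the median of Sntb1 the r was 0.951, and in WT the pair had an r of 0.508. Sntb2 and Aqp4 in WT had an r of 0.942 (exact permutation p 0.00278, adjusted p 0.0875), a rho of 0.943 (exact permutation p 0.0167, adjusted p 0.233) and an r of 0.907 without the 2 farthest libraries. In mdx/mTR the same pair had the opposite sign, with an r of -0.696. Dtna and Aqp4 in mdx/mTR had an r of 0.932 (exact permutation p 0.0125, adjusted p 0.175) and a rho of 0.829 (exact permutation p 0.0583, adjusted p 0.490), and the r was 0.729 without replicates 1 and 5. In WT that pair had an r of -0.294. The largest rank correlation was that of Dtnb and Aqp4 in mdx/mTR, with a rho of -1 (exact permutation p 0.00278, adjusted p 0.117) and an r of -0.721 (exact permutation p 0.0736, adjusted p 0.591), or -0.901 without replicates 1 and 3. In WT that r was -0.595.

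The genes most like each of the 7 were sought by Pearson's r of deviations from the group means of log2(CPM + 0.5) over the 12 libraries, among tested genes with a mean of at least 5 CPM. These values describe libraries that share depth and makeup and carry no test. Nos1 was closest to Tom1l2 (0.955), Vegfa (0.955) and Fhod3 (0.948), Aqp4 to Mtfr1 (0.933), Tfam (0.925) and Aldh5a1 (0.917), and Aqp1 to Bmp6 (0.929), Sema3g (0.909) and Cd163 (0.867). Sntb2 was closest to Tgfbr2 (0.948), Emilin1 (0.948) and Gnai2 (0.947), and Sntb1 to Hdac7 (0.918), Rps7 (0.916) and Rpl29 (0.902). Dtna was closest to Phb (0.940), Ube2e1 (0.940) and Mmadhc (0.935), and Dtnb to B3gnt2 (0.848), Atp6v0a2 (0.841) and Gtf2f2 (0.826). Of these 21 genes, 8 were not called, 10 were called in the direction of their member and 1 in the opposite direction, and 2 were called beside Dtnb, which was not. The opposite one was Phb, lower at -0.20 (edgeR adjusted p 0.0188) beside Dtna, which rose. Among all tested genes 48.3% were called, 25.0% higher and 23.4% lower. Vegfa, a growth factor for vessels, and Bmp6 were themselves lower in mdx/mTR (log2 fold changes -0.37 and -1.04, edgeR adjusted p 0.00626 and 3.9e-05). Tgfbr2, a receptor for TGF-beta, was higher (0.44, edgeR adjusted p 0.00246).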

How the data were processed

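RNA from 12 muscle samples was sequenced. The authors deposited whole-number counts per gene symbol, 1 column per library. The authors' deposited table of their comparison gives log2 fold changes, standard errors, p-values, a score for the test and an average normalised signal, per the file headers. The submitters' processing notes name FastQC, STAR, DESeq2 and the mm10 build, without versions. The counter, annotation and strand handling are not given in the sources used here.

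Counts were tested with edgeR 4.0.16 (filterByExpr, TMM, quasi-likelihood test, group only) in R 4.3.3, with Benjamini-Hochberg adjustment over 13937 genes (99.97% of counts) and a threshold of 0.05. Standard errors are the log2 fold change divided by the square root of F. On simulated counts for these genes edgeR recovered 69% of 100 genes changed by 0.5 and 88% of 100 changed by 1 on the log2 scale, with 9 false calls. No other genes changed there and directions were balanced, whereas 48.3% of genes were called in the data. Those rates therefore need not hold for this comparison. A further gene and the share that uses it are not reported here. Shares used counts per kilobase and two-sided exact permutation tests over 924 splits (smallest p 0.00216). Positions, lengths and shared 50-base stretches are from GENCODE M21 (GRCm38, the assembly called mm10). Named genes were the 7, Dmd, up to 6 called genes per related list by smallest p, and 3 genes per member by likeness. Terc, Nos2, Nos3, guanylate cyclase subunits and Arg1 were named after their values were seen. Alternatives were other filters, scalings (library totals, upper quartile, median of ratios), DESeq2 1.42.0, limma-voom, a replicate block, other transcript lengths and left-out libraries. The 7 genes, lists and tests were chosen with earlier results of these data known. Replicates differed by more than sampling noise (chi-square per degree of freedom 8.87 to 115.5).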

Additional observations from a re-analysis of the deposited data

Results flagged for a closer look

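Values standing far from the rest of their 6 libraries were sought with Dixon's ratio, the distance from an extreme value to the next one as a share of the whole range. The sets were the WT and mdx/mTR values of the 7 genes, Dmd, the named related genes, the shares, the ratio of Aqp1 to endothelial markers and the 10 marker sums. The ratio passed the 95% critical value in 5 of 90 sets, where chance gives 4.5 for sets chosen without sight of their values. Some genes in these sets, Nos2 and Arg1 among them, were named after their values were seen, so that figure is only a rough guide. In WT, replicate 2 was high for Sntb1, with 7.96 CPM against 3.86 to 5.39 CPM in the other libraries (ratio 0.626), and for Aqp4, with 137 CPM against 83.3 to 94.6 CPM (ratio 0.791). Leaving it out gave log2 fold changes of 0.88 for Sntb1 and -0.83 for Aqp4, which both still passed in edgeR (adjusted p 1.4e-04 and 0.00247). In mdx/mTR, replicate 5 was high for the regenerating muscle markers, with 595 CPM against 152 to 308 CPM (ratio 0.647), and for Arg1, with 9.82 CPM against 0.0613 to 0.191 CPM (ratio 0.987). Nos2 was high in mdx/mTR replicate 2, with 11.8 CPM against 6.78 to 8.33 CPM (ratio 0.691).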

How the results depend on the processing

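Sntb1, Sntb2, Dtna, Nos1 and Aqp4 kept their direction and an adjusted p below 0.05 under all 21 alternatives run for each: other filters, scalings and tools (DESeq2 1.42.0, limma-voom in limma 3.58.1), a replicate block, each library left out, and both libraries that stood apart left out, which was added after seeing the data. Aqp1 did not pass with library totals alone (-0.17, edgeR adjusted p 0.214), upper quartile scaling (-0.28, adjusted p 0.0671) or without both libraries (-0.32, adjusted p 0.0644), and ran from -0.41 to -0.28 without 1 library. Dtnb turned positive with library totals alone (0.14) and upper quartile scaling (0.018), and ran from -0.0940 to 0.0494 without 1 library. Without 1 library the differences ran from -9.54 to -6.02 points for the Nos1 share, 1.82 to 2.85 for the Aqp1 share and -0.0999 to 0.0432 for the log2 ratio of Aqp1 to endothelial markers. The Aqp1 share did not pass without both libraries (1.43 points, adjusted p 0.0794). Leaving out 1 library ended the call of the Aqp1 share in 9 of 12 fits and that of the Nos1 share in 8 of 12 (highest adjusted p 0.0812 for each). The causes were not tested, and a smaller group also leaves fewer permutations. The sizes of the shares depend on transcript length: with median lengths the Aqp1 difference was 7.12 points and the Nos1 difference -5.22 points, and with no length correction they were 4.31 and -4.67 points, all with unchanged calls. Of the dystrophin complex partners, 10 were called with library totals alone and 8 with upper quartile scaling, against 5. Of the other aquaporins, 1 was called in place of 2 with a filter of 1 CPM. Over all genes 6076 to 7156 were called.

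The groups share replicate numbers, but deviations of same-numbered libraries correlated from -0.155 to 0.354 and 2 of 6 pairs exceeded 0.1, and the numbers were therefore not treated as pairs. With a replicate block 6420 genes passed, no call of the 7 genes was lost, and 2 of 6 libraries correlated best with their own number. Under the paired exact permutation the differences of the Nos1 share (-8.38 points, adjusted p 0.104) and the Aqp1 share (2.50 points, adjusted p 0.0781) did not pass.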

Other observations

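Markers of 3 other cell types gave further values. Schwann cell markers, the genes of myelinating glia, had 6 of 8 lower and none higher, and summed to 63.8 to 77.9 CPM in WT against 37.2 to 55.6 CPM in mdx/mTR. Smooth muscle and pericyte markers had 6 of 10 lower and 1 higher (902 to 1042 against 790 to 879 CPM). Fat cell markers had 5 of 6 tested and none called in edgeR, with sums of 22.3 to 34.8 and 19.7 to 61.2 CPM.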
